A study of Mus musculus with 8 samples.

Results

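Mouse embryonic stem (ES) cells that lack Fgf4 were given FGF4 or LIF for 3 days, and their transcripts were compared on 4 of the 8 Illumina expression arrays of the series. The arrays were chosen by their titles: 2 with FGF4 at 20 ng/ml and 2 with LIF at 10 u/ml, in each case 1 with the control shRNA vector shRnd1 and 1 with shRnd2. The cells were FGF4-/- cells of the R1 mESC line, of the strains 129S1/SV-+p+Tyr-cKitlSl-J/+ and 129X1/SvJ. Each sample, controls included, lacked Fgf4, carried an shRNA vector and had first spent a night with BMP4 at 10 ng/ml in N2B27, a medium without serum. The same control vectors without a growth factor gave 2 further arrays, and those values are set beside the others where the labels are in question. The remaining 2 arrays carried shRNAs against Mp1 in FGF4. They entered the normalization, the detection filter, the choice of probe per gene symbol, the principal components and the estimate of the spread. The labels name 1 cell line and do not say whether the samples of a group were cultured separately, so the p-values cover the spread between these samples alone, and that spread may be technical. They also do not say how long BMP4 was kept after the first night. For the LIF samples the treatment note names Rnd1 alone, whereas the titles name shRnd1 and shRnd2, and the titles were used.

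LIF binds a receptor made of Lifr and the shared subunit gp130 (Il6st), activates JAK kinases and the transcription factor STAT3, and with BMP4 holds mouse ES cells in the naive state of the early epiblast. FGF4 is the main FGF that ES cells make for themselves. It activates the RAS, MEK and ERK cascade through FGF receptors and starts the passage from the naive state to the formative and primed epiblast, and ERK in turn switches on phosphatases and adaptors that dampen it.

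Of the 45281 probes, 15375 to 17813 were detected on an array, and 14103 features (1 probe per gene symbol, or an unnamed probe) were tested, of which 8933 had a name. Values are normalized log2 intensities unless stated, and a threshold of 0.05 on adjusted p was used. The residual SD was 0.213 log2 units between the FGF4 arrays and 0.293 between the arrays labelled LIF, and 64 and 434 features differed by over 2-fold within those pairs. Between the Mp1 knockdown arrays, which share in the estimate of the spread, the residual SD was 0.438. Of 10 ES cell markers, 6 had a named probe and 5 (Pou5f1, Lin28a, Tdgf1, Dppa5a and Utf1) were detected on all 8 arrays, while Esrrb was detected on none. Of 9 markers of fibroblasts, the usual feeder cells, 7 were detected on no array, but Thy1 was detected on all 8. Of 5 markers of mesoderm and primitive streak, T had no named probe and the other 4 were detected on no array. The first principal component of all 8 arrays, Mp1 knockdown included, held 59.0% of the variance. It placed the FGF4 arrays with control shRNA at -31.7 and -36.8, the arrays labelled LIF at 49.0 and 33.9 and those labelled no growth factor at 34.7 and 35.4. In bulk samples, fewer cells of a type and less RNA per cell cannot be told apart. The loss of Fgf4 was not checked, since 0 probes were named Fgf4.

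Socs3 did not follow the labels. This gene, a direct STAT3 target whose product inhibits signalling through gp130, read 7.67 and 7.64 on the arrays labelled LIF and 8.17 and 7.91 with FGF4. On the arrays labelled no growth factor it read 11.04 and 11.01, above all other control arrays, so that it was -3.38 log2 units lower on the arrays labelled LIF (adjusted p = 0.000651). Before normalization the intensities were 183 and 237 for LIF, 376 and 299 for FGF4 and 2153 and 2227 for no growth factor. Stat3, itself a STAT3 target, read 5.97 and 5.86 on the arrays labelled LIF and 6.71 and 7.28 without factor (adjusted p = 0.554), and the STAT3 target Bcl3 read 6.37 and 5.76 against 7.50 and 7.61 (adjusted p = 0.124). Neither difference passed. By their brightest probes, the other measured STAT3 targets lay close between the arrays labelled LIF and no growth factor (Klf4 -0.22, Pim1 -0.08 and Cish -0.16 log2 units, adjusted p = 0.904, 0.949 and 0.876). A second Pim1 probe stood at -0.75 and a second Klf4 probe at -0.53, both lower on the arrays labelled LIF. Irf1, which STAT factors induce, read 8.92 and 8.79 on the arrays labelled LIF and 7.96 and 7.66 without factor, a difference of 1.04 in the other direction that did not pass (adjusted p = 0.241). Its other probes differed by less in that direction, by 0.14, 0.49 and 0.51. Socs3 was the only feature of 14103 that passed between the arrays labelled LIF and no growth factor with limma (0.00709%), against 1035 at an unadjusted p under 0.05. Which arrays received LIF therefore rests on the labels alone, and they are called the arrays labelled LIF here. With the arrays labelled no growth factor in their place, 2205 features (15.6%) differed from FGF4, 1106 higher (7.84%) and 1099 lower (7.79%). The 250 bases before the start of Socs3 (chr11:117969367-117969616, minus strand, GRCm38.p6, RefSeq) are shown because they hold 1 match to TTCNNNGAA, the spacing that STAT factors bind, in capitals, with its first base 154 bases before the start:

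Socs3: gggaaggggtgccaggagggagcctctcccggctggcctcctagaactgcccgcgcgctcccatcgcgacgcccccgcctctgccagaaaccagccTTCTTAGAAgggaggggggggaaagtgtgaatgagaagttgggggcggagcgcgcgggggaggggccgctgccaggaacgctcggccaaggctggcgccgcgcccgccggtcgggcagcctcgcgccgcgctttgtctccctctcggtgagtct

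Both strands were searched. Of 32851 mouse promoters of that length, 7.02% held TTCNNNGAA.

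**Figure D1:**
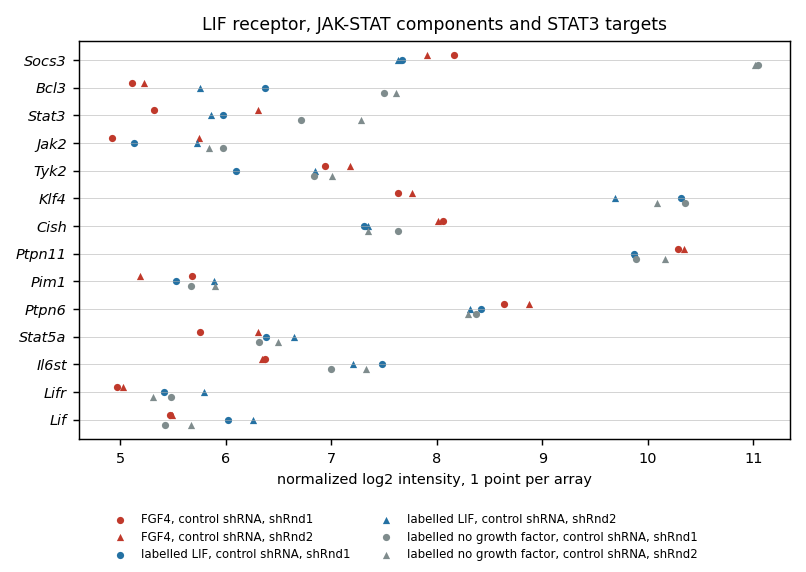
Normalized log2 intensity of 14 genes of the LIF receptor, the JAK-STAT pathway and STAT3 targets, 1 point per control shRNA array, with colours for the labelled treatment and shapes for shRnd1 and shRnd2. Socs3 sits at 11.04 and 11.01 on the arrays labelled no growth factor and between 7.64 and 8.17 on the other 4, while Klf4 separates the FGF4 arrays from the rest; levels of different probes are not comparable.

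Between FGF4 and the arrays labelled LIF, 2212 of 14103 features passed (15.7%), with 3959 at an unadjusted p under 0.05. Of the 2212, 1124 were higher with FGF4 (7.97% of all tested) and 1088 were lower (7.71%). In the fitted values, 139 of the higher and 137 of the lower differed by at least 4-fold and 33 and 25 by at least 8-fold. With the dimmer group held at the lowest detected signal where no array of it detected the probe, 573 and 598 differed by at least 2-fold, 111 and 119 by at least 4-fold and 20 and 21 by at least 8-fold. Of the higher features 353 were not well above background on the arrays labelled LIF, and 226 of the lower were not well above background with FGF4. Of 40 genes followed by name that passed and had further probes, all further probes also passed for 20, at least 1 did not for 20 and 0 passed in the opposite direction. Names were unevenly spread: 871 of the higher features (77.5%) and 610 of the lower (56.1%) had one, so the named genes lack more of the lower features. The even split rests on quantile normalization. When arrays were scaled by their medians instead, the median of all features moved by 0.222 log2 units towards FGF4, and 1211 (70.1%) were higher and 517 (29.9%) lower. The count fell to 981 without the shRnd1 array with FGF4, to 987 without its shRnd2 array, to 1133 without the shRnd1 array labelled LIF and to 1495 without its shRnd2 array.

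**Figure D2:**
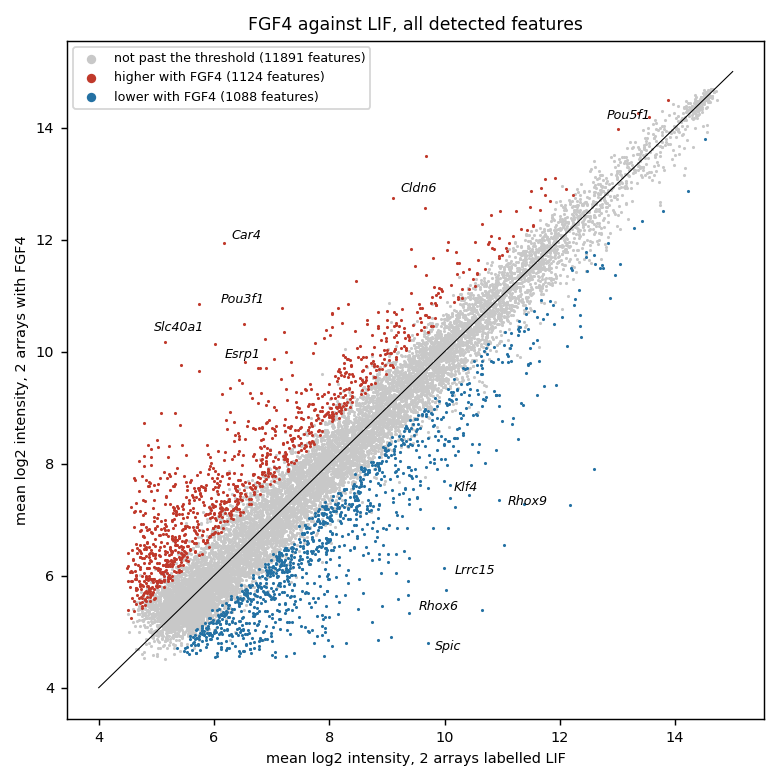
Mean normalized log2 intensity of each of the 14103 features on the 2 arrays labelled LIF (x axis) and the 2 arrays with FGF4 (y axis), with features past an adjusted p of 0.05 in red where higher with FGF4 (1124) and in blue where lower (1088), and the line of equal values in black. Car4 and Slc40a1 lie farthest above the line among the genes written out, and Spic lies farthest below it.

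The largest named rise was that of Car4. This carbonic anhydrase gene, whose product is anchored in the plasma membrane, read 11.92 and 11.96 with FGF4 and 5.88 and 6.47 on the arrays labelled LIF, a difference of 5.76 ± 0.23 log2 units (SE, adjusted p = 1.76e-05). It was not well above background on the arrays labelled no growth factor (4.67 and 4.51). Slc40a1, the iron exporter ferroportin, read 10.13 and 10.20 with FGF4 and was not well above background on the arrays labelled LIF (4.99 and 5.31), at least 24.0-fold lower (adjusted p = 4.23e-05). Such a fold is a bound: it sets the FGF4 mean against the lowest signal that counts as detected. For both genes the groups lay more than 4 log2 units apart. Esrp1, which directs epithelial splicing, read 10.16 and 10.12 against 5.77 and 6.28 (4.11 ± 0.25, adjusted p = 7.03e-05), and Rbp7, a retinol-binding protein gene, 10.56 and 10.44 against 6.77 and 6.27 (3.98 ± 0.46, adjusted p = 0.000932). The ERK phosphatase gene Dusp4 read 9.59 and 9.71 against 5.85 and 5.64 (3.91 ± 0.20, adjusted p = 4.1e-05). Its 3 other probes were also higher, by 2.73, 1.34 and 2.47 log2 units. Cldn6, a claudin of early epithelia, read 12.75 and 12.74 against 9.19 and 9.03, and Pou3f1 (Oct6), a POU factor of the primed epiblast, 10.82 and 10.74 against 6.86 and 7.50. Cldn6 was high in both groups and still 3.64 log2 units apart, and Pou3f1 3.60.

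The axonal kinesin gene Kif1a was higher by 3.33 ± 0.19 log2 units (adjusted p = 4.95e-05), with 10.16 and 10.29 against 6.97 and 6.82, and the homeobox gene Msx1 by 3.28 ± 0.21 (adjusted p = 7.18e-05), with 9.93 and 9.70 against 6.71 and 6.35. The other 6 of the 15 were not well above background on the arrays labelled LIF. Psmb8, a catalytic subunit of the immunoproteasome, was at least 10.0-fold higher, Tmem54, a membrane protein gene, at least 8.81-fold and Lypd2, a gene of the Ly6 family, at least 5.84-fold. Vrtn was at least 5.50-fold higher, the interferon-inducible GTPase gene Igtp at least 5.22-fold and the claudin gene Cldn3 at least 4.46-fold. Lypd2 read 8.44 and 7.82 with FGF4 (adjusted p = 0.00824) and did not pass without the FGF4 shRnd1 array or with no filter on detection (adjusted p = 0.0542 to 0.074). It was the only one of the 30 largest named differences that lost its call under any alternative tried. A second probe of Psmb8 was higher by 0.94 log2 units (adjusted p = 0.0165).

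The largest named fall was that of Spic, an Ets-family transcription factor gene. It read 9.68 and 9.74 on the arrays labelled LIF and 4.78 and 4.82 with FGF4, not well above background and at least 19.0-fold lower (adjusted p = 8.28e-06). Its second probe was lower by -3.40 log2 units. The X-linked homeobox gene Rhox6 read 9.49 and 9.24 against 5.87 and 5.43 with FGF4 (-3.71 ± 0.21, adjusted p = 4.85e-05), and its neighbour in the Rhox cluster, Rhox9, 10.94 and 10.95 against 7.53 and 7.18 (-3.59 ± 0.28, adjusted p = 0.000175). Lrrc15, which encodes a leucine-rich repeat membrane protein, was lower by -3.85 ± 0.21 log2 units and the pepsinogen gene Pga5 by -3.61 ± 0.19. On the arrays labelled no growth factor these genes lay near the arrays labelled LIF: Spic read 9.51 and 9.46, Rhox6 8.75 and 8.61, Rhox9 10.26 and 10.26 and Lrrc15 9.34 and 9.46. The sulfotransferase gene Chst3 (8.67 and 8.32 against 5.40 and 5.42) was detected on 1 of the 2 FGF4 arrays, and its second probe was lower by -2.92. Sapcd1 was lower by -3.21 and Fam183b by -2.89 log2 units. 1700016D06Rik, of unknown function, was lower by -4.28, but a second probe stood at -0.09 (adjusted p = 0.867).

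The others were not well above background with FGF4. Uroc1, an enzyme of histidine breakdown, was at least 6.02-fold lower, the spermatid gene Cabs1 at least 5.46-fold and Aurkc, the Aurora kinase of meiosis, at least 5.31-fold. 1700001P01Rik was at least 5.47-fold lower, the glycerol phosphate acyltransferase gene Gpat3 at least 4.56-fold and the defensin gene Defb42 at least 3.42-fold. All 15 passed whichever 1 of the 8 arrays was left out.

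**Figure D3:**
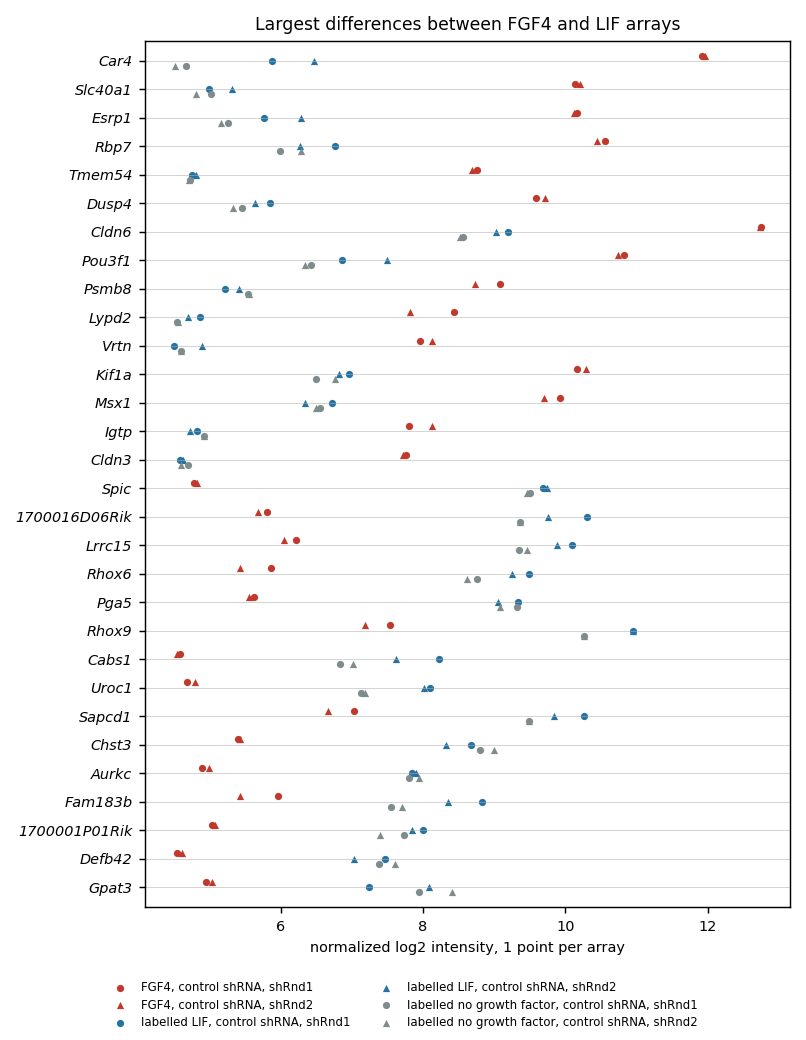
Normalized log2 intensity of the 15 named genes with the largest rises and the 15 with the largest falls between FGF4 and the arrays labelled LIF, 1 point per control shRNA array, with colours for the labelled treatment and shapes for shRnd1 and shRnd2. In each of the 30 genes the 2 FGF4 arrays lie apart from the 2 arrays labelled LIF, and the arrays labelled no growth factor lie on the side of the latter.

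Most measured genes of the naive state were lower with FGF4. Of 15 listed genes, 10 had a named probe and 7 were kept by the filter on detection. Among 7 measured, 6 were lower, 0 were higher and 1 (Nr5a2, -0.29, adjusted p = 0.391) did not pass, where 15.7% of all features passed and the median of all features was -0.01. The median of the 7 was -1.68 log2 units. Klf4, a factor of the naive circuit that LIF sustains, read 7.63 and 7.76 with FGF4 and 10.31 and 9.69 on the arrays labelled LIF (-2.30 ± 0.34, adjusted p = 0.00278). Klf2 read 9.89 and 9.78 against 11.75 and 11.52 (-1.80 ± 0.20, adjusted p = 0.000794), and the T-box gene Tbx3 9.23 and 9.06 against 10.71 and 10.69 (-1.56 ± 0.19, adjusted p = 0.00117). On the arrays labelled no growth factor Klf4, Klf2 and Tbx3 read 10.35 and 10.09, 11.43 and 11.43 and 11.08 and 11.06. Further Tbx3 probes stood at -1.26, -1.45 and -0.61 (adjusted p = 0.0377, 0.000944 and 0.291). Dppa3 (Stella), a maternal factor that protects DNA methylation, was lower by -1.81, and the adhesion gene Pecam1, detected on 1 of the 2 FGF4 arrays, by -1.68. Prdm14, a repressor of FGF receptor signalling, was not well above background with FGF4 and detected on 1 of the arrays labelled LIF, at least 1.16-fold lower (adjusted p = 0.0242); it did not pass without the FGF4 shRnd1, FGF4 shRnd2, LIF shRnd2, no-factor shRnd1 or no-factor shRnd2 array or with no background correction or scaling by array medians (adjusted p = 0.051 to 0.165).

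Genes that both states share were mixed: 3 were higher with FGF4, and Pou5f1 and Dppa5a lay close to 0. Of 7 measured genes of general pluripotency, 3 were higher, 0 lower and 4 did not pass (median 0.64), where 15.7% of all features passed. Pou5f1 (Oct4), needed in both states, read 13.94 and 14.10 with FGF4 and 13.57 and 14.05 on the arrays labelled LIF (0.21 ± 0.21, adjusted p = 0.563), and the groups overlapped. Dppa5a (0.10), the Nodal co-receptor gene Tdgf1 (0.64) and Dppa2 (0.57) did not pass. Lin28a, a repressor of let-7 microRNAs, was higher by 1.15 ± 0.19 (adjusted p = 0.00438), with 10.34 and 10.27 against 9.01 and 9.29. Dppa4, a chromatin factor of ES cells, was higher by 1.10 and Utf1, another, by 1.09. Dppa4 did not pass without either the FGF4 shRnd2 or LIF shRnd1 array (adjusted p = 0.0546 to 0.0665), and Utf1 did not pass whichever of the 6 control arrays was left out or with no filter on detection (adjusted p = 0.0545 to 0.144).

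Most measured genes of the formative and primed epiblast were higher. Of 18 listed genes, 13 had a named probe and 7 were kept by the filter on detection. That filter can keep a gene detected with FGF4 alone. The threshold was passed by 15.7% of all features. Of 7 measured, 6 were higher, 0 lower and 1 (Zic2, 0.17) did not pass, with a fitted median of 3.09 log2 units (2.73 with genes not well above background in the dimmer group held at their bound). Car4, Cldn6 and Pou3f1 were among the 6. Dnmt3b, which sets new DNA methylation, read 8.24 and 8.39 with FGF4 and 5.19 and 5.25 on the arrays labelled LIF, where it was not well above background, and was at least 6.63-fold higher (adjusted p = 0.000155). Sox4 was higher by 1.75 ± 0.19 (adjusted p = 0.000762), with 8.00 and 7.63 against 6.12 and 6.01, but a second Sox4 probe stood at -0.41 (adjusted p = 0.223). Wnt8a, a Wnt ligand of the early embryo, was at least 1.12-fold higher from background on the arrays labelled LIF, and missed the threshold without either the FGF4 shRnd2 or LIF shRnd2 array (adjusted p = 0.0535 to 0.0842). A second Zic2 probe was higher by 0.89 (adjusted p = 0.0402). The other measured genes of DNA methylation, the methyl-CpG readers Mbd2 (-0.23) and Mbd4 (0.21), did not pass.

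Several feedback inhibitors of ERK were higher, and an early response gene was lower. Of 16 measured genes of ERK feedback and early response, 7 were higher, 2 lower and 7 did not pass, where 15.7% of all features passed. The fitted median was 0.71 (0.70 with 3 genes at their bound). With array medians 9 were higher and 0 lower. Among the inhibitors, Dusp4 was described above, Spred1, an adaptor that blocks RAF activation, was at least 3.57-fold higher (7.31 and 7.53 against 5.38 and 4.97, not well above background), and Il17rd (Sef), a membrane inhibitor, was higher by 2.08 ± 0.19 (7.94 and 7.75 against 5.63 and 5.91, adjusted p = 0.0003), with a second probe at 0.40 (adjusted p = 0.18). Spry4, the Sprouty adaptor, was higher by 1.22 (adjusted p = 0.0173). For the MAP kinase phosphatases Dusp1 (0.64, adjusted p = 0.0589) and Dusp5 (0.77, adjusted p = 0.0594) the difference did not pass, and Dusp14 was lower by -1.14. The ETS factor gene Etv4, a target of FGF signalling in many tissues, read 9.40 and 9.58 against 6.53 and 6.34 (3.06 ± 0.17, adjusted p = 5.19e-05). It read 7.25 and 7.21 on the arrays labelled no growth factor, between the other groups. Bhlhe40, a repressor of the clock and of hypoxia responses, was at least 4.11-fold higher. Egr1, an immediate-early factor switched on by ERK within minutes in many cells, was lower by -0.95 ± 0.18 (7.05 and 6.85 against 7.93 and 7.86, adjusted p = 0.00841), and on the arrays labelled no growth factor it stood at 8.73 and 8.82. Fos (-0.03), Junb (0.62) and Ier3 (-1.004) did not pass. Spry4 did not pass without either the FGF4 shRnd2 or LIF shRnd2 array or with no filter on detection (adjusted p = 0.0533 to 0.138), Dusp14 did not pass without the FGF4 shRnd1 array or with scaling by array medians (adjusted p = 0.0524 to 0.0548), and Egr1 did not pass without either the FGF4 shRnd2 or LIF shRnd1 array or with scaling by array medians (adjusted p = 0.0597 to 0.143). Myc was higher by 0.65 (adjusted p = 0.0342), detected on 1 FGF4 array, and did not pass whichever of the 6 control arrays was left out or with no background correction or scaling by array medians (adjusted p = 0.0719 to 0.189). Of the 9 that passed, 5 (Dusp4, Etv4, Spred1, Il17rd and Bhlhe40) did so whichever array was left out.

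Of the FGF ligands and receptors, 5 of 16 listed genes were measured, 1 was higher and 4 did not pass, near the 15.7% of all features. Fgfbp1, a carrier that releases FGFs from the matrix, was higher by 1.58 ± 0.27 (8.68 and 8.58 against 7.12 and 6.98, adjusted p = 0.00531), and did not pass without the FGF4 shRnd1 array (adjusted p = 0.0511). Fgfr2 (0.21) and the decoy receptor Fgfrl1 (0.40) were near background in both groups. The ligand genes Fgf17 (0.33) and Fgf10 (-0.69) did not pass, but a second Fgf10 probe was lower by -1.07 (adjusted p = 0.0272). Of 9 measured genes of the MP1 complex and the MAPK core, the GTPase genes Nras (0.81) and Rragb (1.14) were higher and 7 did not pass, near the 15.7% of all features, among them Map2k1 (-0.36), Map2k2 (-0.06), Araf (-0.17) and Lamtor1 (-0.10). Nras and Rragb did not pass in some of the fits that left out the FGF4 shRnd1, FGF4 shRnd2, LIF shRnd1 or LIF shRnd2 array (adjusted p = 0.0597 to 0.114). The median of these 9, -0.10, was 0.13 with array medians in place of quantiles. Lamtor3, the gene of MP1, was detected on none of the 8 arrays.

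Of 9 measured components of the LIF receptor pathway 2 were lower, 0 higher and 7 did not pass, a share near the 15.7% of all features. Il6st (gp130) read 6.37 and 6.34 with FGF4 and 7.48 and 7.21 on the arrays labelled LIF (-0.98 ± 0.21, adjusted p = 0.0143), and the Lif gene was lower by -0.66 (adjusted p = 0.0485). Neither call was firm: Il6st did not pass without the FGF4 shRnd1, FGF4 shRnd2 or LIF shRnd1 array or with scaling by array medians (adjusted p = 0.0887 to 0.103), nor did Lif whichever of the 6 control arrays was left out or with no background correction, scaling by array medians or every probe kept (adjusted p = 0.0509 to 0.308). Lifr (-0.60, not well above background with FGF4), Jak2 (-0.10), Tyk2 (0.59), Stat3 (-0.10), Stat5a (-0.48) and the phosphatase genes Ptpn11 (0.44) and Ptpn6 (0.39) did not pass. Of 5 measured LIF/STAT3 targets, Klf4 and Bcl3 were lower, Cish was higher and 2 did not pass. Socs3 differed by 0.39 ± 0.18 between FGF4 and the arrays labelled LIF (adjusted p = 0.201), and against no growth factor it was lower by -2.99 (adjusted p = 5.07e-05). Pim1, a STAT-induced kinase gene, stood at -0.28 (adjusted p = 0.494). Cish, another inhibitor of cytokine signalling, was higher by 0.71 (adjusted p = 0.0302) and did not pass whichever of the 6 control arrays was left out (adjusted p = 0.0563 to 0.168). Bcl3 was not well above background with FGF4, at least 1.51-fold lower (adjusted p = 0.0309), and did not pass without the FGF4 shRnd1, FGF4 shRnd2, LIF shRnd1, no-factor shRnd1 or no-factor shRnd2 array or with no background correction, scaling by array medians or no filter on detection (adjusted p = 0.0596 to 0.178).

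Several BMP targets and Wnt genes were higher. Of 9 measured BMP/SMAD targets, 3 were higher, 1 lower and 5 did not pass (median 0.48). Beside Msx1, the inhibitors of helix-loop-helix factors Id1 (12.95 and 12.80 against 11.61 and 11.40, 1.37 ± 0.29, adjusted p = 0.0157) and Id3 (9.88 and 9.60 against 8.59 and 8.15, 1.37 ± 0.32, adjusted p = 0.022) were higher. Id1 and Id3 did not pass in some of the fits without 1 of the FGF4 arrays or 1 of the arrays labelled LIF. They also did not pass with no filter on detection. Gata2, a zinc finger factor, was lower by -1.92 ± 0.21 (6.59 and 6.42 against 8.44 and 8.41, adjusted p = 0.000778). Id2 (0.48), Id4 (-0.28), Gata3 (-0.24), Dlx3 (0.84) and the inhibitory Smad6 (-0.20) did not pass. Of 10 measured genes of the Nodal pathway, 1 was higher, 1 lower and 8 did not pass, a share near the 15.7% of all features. Lefty2, a secreted Nodal antagonist, was lower by -1.81 ± 0.27 (8.07 and 7.94 against 9.67 and 9.96, adjusted p = 0.00305), while its relative Lefty1 stood at -0.53 (adjusted p = 0.187), with 9.67 and 9.16 against 10.07 and 9.82. On the arrays labelled no growth factor Lefty1 read 8.05 and 7.78, lower than in both other groups, but its difference from the arrays labelled LIF did not pass (adjusted p = 0.0829). Nodal itself read 11.49 and 11.97 against 11.39 and 11.30 (0.38, adjusted p = 0.388), a difference that did not pass. Skil, a SMAD co-repressor, was higher by 1.06 and did not pass without the FGF4 shRnd1, FGF4 shRnd2, LIF shRnd2, no-factor shRnd1 or no-factor shRnd2 array or with no filter on detection (adjusted p = 0.0515 to 0.179).

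Of 11 measured Wnt pathway genes, 6 were higher, 0 lower and 5 did not pass, where 15.7% of all features passed. The fitted median was 1.09, but 0.16 with 4 genes at their bound. Axin2, the feedback inhibitor used as a readout of Wnt signalling, was at least 2.02-fold higher (6.64 and 6.55 against 4.78 and 4.88, at background, adjusted p = 0.000815), and the Wnt target Sp5 at least 1.40-fold (adjusted p = 0.00209). The receptor gene Fzd7 was higher by 1.91 ± 0.20 (10.32 and 10.40 against 8.65 and 8.25, adjusted p = 0.00064). The ligand genes Wnt3 (at least 1.57-fold) and Wnt6 (1.09) were higher, but did not pass in some of the fits that left out 1 of the 6 control shRNA arrays or with no filter on detection (adjusted p = 0.0504 to 0.127). A second Wnt6 probe stood at 0.28 (adjusted p = 0.532). Ctnnb1 (-0.86), Tcf7l1 (-0.44), Ccnd1 (-0.15), Cdx1 (-0.50) and Wnt7b (-1.21, adjusted p = 0.0681) did not pass. Of 13 listed genes of primitive streak and mesendoderm only 3 were measured. Evx1, a homeobox gene of the posterior streak, was higher by 2.94 ± 0.40 (9.21 and 9.66 against 6.51 and 6.48, adjusted p = 0.00195). Gsc, a homeobox gene of the organizer, was lower by -2.49 ± 0.18 (5.59 and 5.32, detected on 1 of 2 arrays, against 7.84 and 8.05, adjusted p = 0.000129), with 9.30 and 9.26 on the arrays labelled no growth factor. The third was Wnt3.

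**Figure D4:**
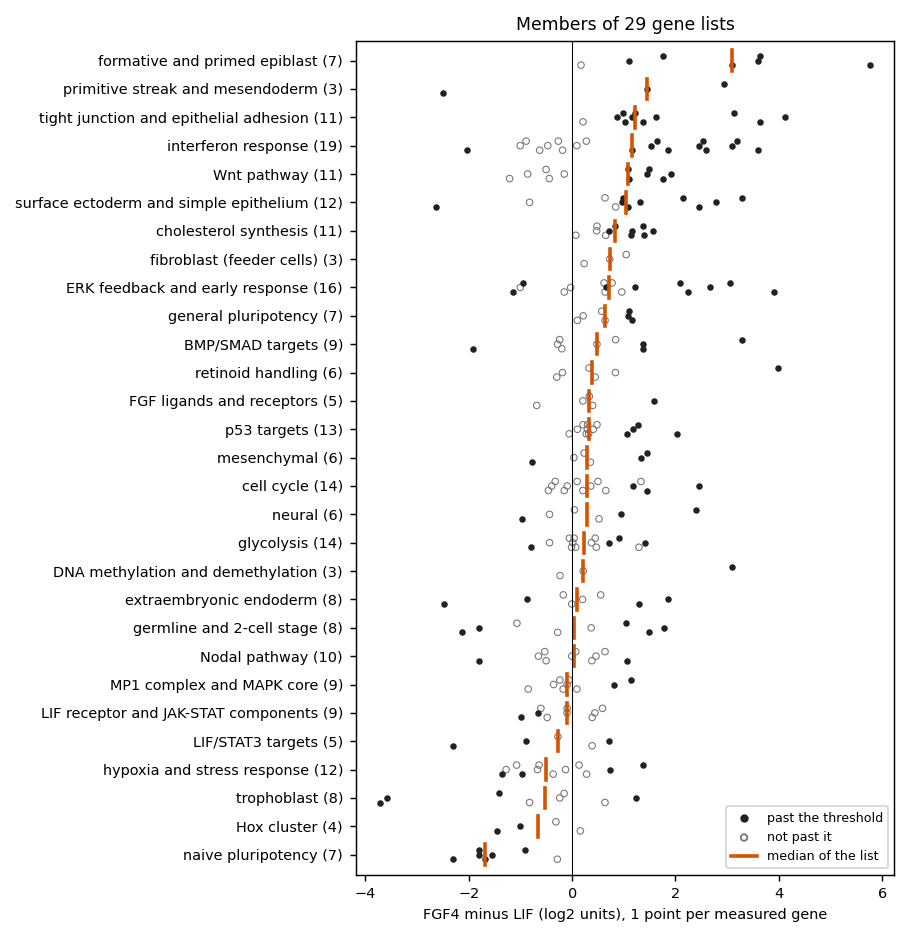
Difference between FGF4 and the arrays labelled LIF (log2 units) for each measured gene of 29 gene lists, 1 point per gene, filled where it passed an adjusted p of 0.05, with the number measured in brackets and the list median as an orange bar. Medians are of fitted differences, bounds not applied, and run from 3.09 for the formative and primed epiblast to -1.68 for naive pluripotency, and most lists hold points on both sides of 0.

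Genes of tight junctions and epithelial adhesion were higher with FGF4. Of 11 measured, 10 were higher, 0 lower and 1 (Tjp1, 0.21) did not pass, where 15.7% of all features passed. The median was 1.21. Beside Cldn6, Cldn3 and Esrp1, the claudin gene Cldn4 was higher by 1.17 ± 0.19 (11.55 and 11.23 against 10.14 and 10.30, adjusted p = 0.00407). Esrp2 (1.62), the desmosome gene Pkp2 (1.38), Cldn7 (1.21), the junctional adhesion gene F11r (1.02), the E-cadherin gene Cdh1 (0.99) and Tjp3 (0.88) passed as well. Cldn3, Cldn4, Cldn6 and Esrp1 passed whichever array was left out. The other 6 did not pass in some of the fits that left out the FGF4 shRnd1, FGF4 shRnd2, LIF shRnd1 or LIF shRnd2 array (adjusted p = 0.0511 to 0.157), a second Esrp2 probe stood at 0.55 (adjusted p = 0.0708), and a second Cdh1 probe stood at -0.02 (adjusted p = 0.964). With array medians 10 were again higher.

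Of 12 measured genes of surface ectoderm and simple epithelium, 8 were higher, 1 lower and 3 did not pass, where 15.7% of all features passed. The fitted median was 1.04 (0.97 with 1 gene at its bound). The paired keratin genes of simple epithelium, Krt8 (11.26 and 11.25 against 8.69 and 8.24, 2.79 ± 0.26, adjusted p = 0.00037) and Krt18 (10.41 and 10.38 against 8.48 and 7.40, 2.45 ± 0.38, adjusted p = 0.00345), were both higher. Tfap2a, a factor of ectoderm and neural crest, was higher by 2.14 ± 0.22 (adjusted p = 0.000549) and Krt19 at least 1.29-fold. The Grainyhead factors of epithelia moved apart: Grhl2 was higher by 0.96 (adjusted p = 0.0343) and Grhl3 lower by -2.64 ± 0.21 (5.69 and 5.38 against 8.12 and 8.23, adjusted p = 0.000174). Grhl3 was detected on 1 of the 2 FGF4 arrays, and Grhl2 did not pass whichever of the 6 control arrays was left out or with no filter on detection (adjusted p = 0.0604 to 0.218). Krt7 (0.64), Dlx3 and Tfap2c (-0.82) did not pass. Of 6 measured mesenchymal genes, 2 were higher, 1 lower and 3 did not pass. Itgb5, an integrin subunit gene (1.44), and Mmp2, a gelatinase gene (1.34), were higher, and the fibronectin gene Fn1 was lower by -0.77 and did not pass whichever of the 6 control arrays was left out or with no background correction or scaling by array medians (adjusted p = 0.0625 to 0.218). Snai1 (0.03), Twist1 (0.23) and Itga5 (0.35) did not pass.

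Many genes of interferon response and antigen presentation were higher with FGF4, but not all. Of 19 measured, 10 were higher, 1 lower and 8 did not pass, where 15.7% of all features passed. The median was 1.15, and 1.48 with array medians. The GTPase gene Gbp2 read 7.60 and 7.83 with FGF4 and 4.64 and 4.62 on the arrays labelled LIF, not well above background (at least 4.38-fold, adjusted p = 0.000381). Igtp read 7.81 and 8.13 against 4.82 and 4.73 (adjusted p = 5.47e-05), and Oasl2, of the oligoadenylate synthetase family, 7.18 and 7.14 against 4.65 and 4.61 (at least 2.98-fold, adjusted p = 7.63e-05). All 3 were detected on both FGF4 arrays and on neither array labelled LIF. Irf1, the transcription factor that carries part of the interferon gamma response, read 10.66 and 10.74 against 8.92 and 8.79 (1.85 ± 0.20, adjusted p = 0.00063), and its 3 other probes were higher by 2.17, 2.32 and 2.41. Of peptide processing for MHC class I, the transporter gene Tap1 (7.49 and 7.52 against 4.73 and 5.09) was at least 3.79-fold higher (adjusted p = 0.000475). Psmb8 read 9.09 and 8.73 against 5.22 and 5.42 (adjusted p = 7.63e-05), and the class I heavy chain genes H2-K1 (1.65 ± 0.17, adjusted p = 0.00055) and H2-D1 (1.15 ± 0.17, adjusted p = 0.0024) were higher. The light chain gene B2m stood at 0.09 (adjusted p = 0.925). A second H2-K1 probe stood at 0.29 (adjusted p = 0.423), and further H2-D1 probes stood at 1.42 and 0.72 (adjusted p = 0.0031 and 0.0597). Bst2 (tetherin) was higher by 2.46, and Psmb9 was higher by 1.52 but did not pass without the FGF4 shRnd1, FGF4 shRnd2, LIF shRnd2, no-factor shRnd1 or no-factor shRnd2 array or with no filter on detection (adjusted p = 0.0526 to 0.153).

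The other interferon genes were lower or did not pass. Ifi27 was lower by -2.04 ± 0.21 (5.89 and 5.99 against 8.25 and 7.71, adjusted p = 0.000555), and its second probe by -2.19. Ifitm1 (-1.005), Ifitm2 (-0.89) and Ifitm3 (-0.63), membrane proteins of stem cells and of antiviral defence, did not pass. Of 2 further Ifitm1 probes, 1 was lower by -1.71 (adjusted p = 0.0399). On the Mp1 knockdown arrays, which entered the estimate of the spread, these genes had SDs of 1.05, 1.05 and 1.08 log2 units and B2m 1.20. In each control group the SDs were 0.27 or less. The interferon signal transducers Irf9 (-0.47) and Stat2 (-0.27) and the ubiquitin-like Isg15 (0.28) did not pass. The brightest Irgm1 probe stood at -0.18 (adjusted p = 0.719), while another probe of that gene was higher by 1.80 (adjusted p = 0.00125). Near-identical family members, such as the Ifitm genes, the MHC heavy chains and the GTPases, can share signal on an array, and this was not tested. Of the blood cell markers with a probe, Ptprc and Lyz2 were detected on no array. Cd3e was detected on both FGF4 arrays (intensities of 124 and 108) and on neither labelled LIF (83.7 and 89.1). The part of other cells in these differences was not tested.

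**Figure D5:**
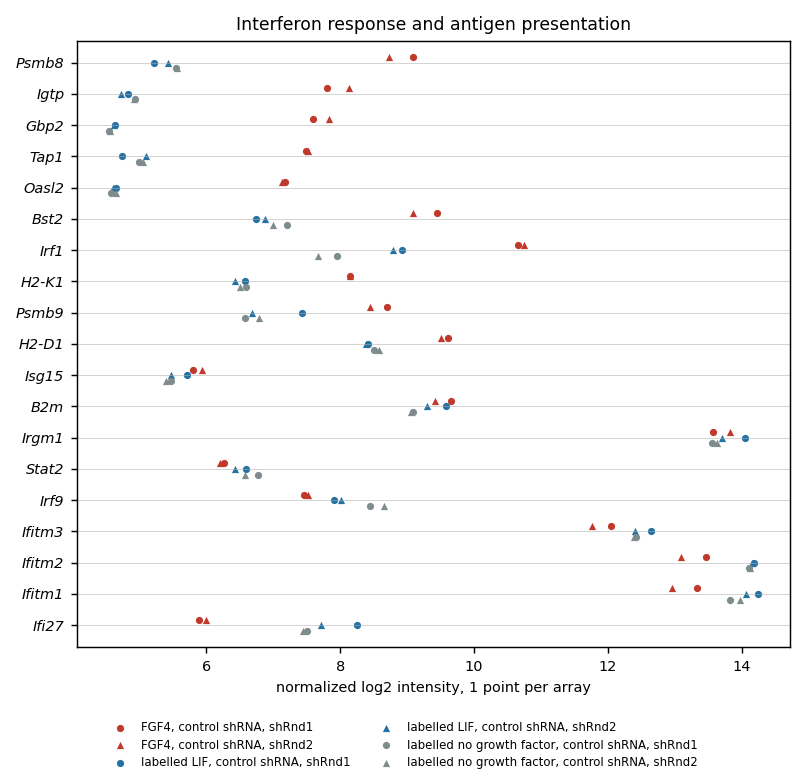
Normalized log2 intensity of 19 genes of interferon response and antigen presentation, 1 point per control shRNA array, with colours for the labelled treatment and shapes for shRnd1 and shRnd2, ordered by the difference between FGF4 and the arrays labelled LIF. From Psmb8 down to H2-D1 the FGF4 arrays lie to the right of all 4 others, and Ifi27 lies to the left.

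The promoters of 3 genes that rose are shown, with matches to GAAANNGAAA, a core of the elements that interferon regulatory factors bind, and to TTCNNNGAA in capitals. They are the 250 bases before the start of Gbp2 (chr3:142620413-142620662), Igtp (chr11:58199306-58199555) and Irf1 (chr11:53769764-53770013), all on the plus strand of GRCm38.p6 from RefSeq:

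Gbp2: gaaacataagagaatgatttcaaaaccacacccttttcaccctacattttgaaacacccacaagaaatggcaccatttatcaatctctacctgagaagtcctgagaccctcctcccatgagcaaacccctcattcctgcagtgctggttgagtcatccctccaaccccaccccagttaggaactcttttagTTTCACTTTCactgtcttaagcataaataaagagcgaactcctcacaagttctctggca

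Igtp: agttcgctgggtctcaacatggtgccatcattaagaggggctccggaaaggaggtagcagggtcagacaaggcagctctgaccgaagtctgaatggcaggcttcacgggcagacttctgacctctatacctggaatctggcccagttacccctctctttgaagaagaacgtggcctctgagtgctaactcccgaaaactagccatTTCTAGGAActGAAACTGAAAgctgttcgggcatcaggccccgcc

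Irf1: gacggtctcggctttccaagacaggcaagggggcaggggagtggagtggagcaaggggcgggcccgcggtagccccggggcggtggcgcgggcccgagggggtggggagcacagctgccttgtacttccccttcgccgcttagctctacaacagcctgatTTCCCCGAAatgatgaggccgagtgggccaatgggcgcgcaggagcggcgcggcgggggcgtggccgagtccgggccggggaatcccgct

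Gbp2 held GAAANNGAAA once, on the opposite strand, with its first base 59 bases before the start, and Igtp held TTCNNNGAA and GAAANNGAAA once each, with first bases 45 and 34 bases before it. Irf1 held TTCNNNGAA once, 90 bases before its start, and a second Irf1 promoter of the table held neither motif. The promoters of Tap1 and Psmb9, neighbours on chromosome 17 that are read in opposite directions, held neither. Their windows (34187306-34187555 and 34187331-34187580) share most of their bases, so they are not separate sequences. Of the 32851 promoters, 2.98% held GAAANNGAAA, and no binding was measured here.

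Lineage markers outside the epiblast were mixed and mostly dim. Of 8 measured genes of extraembryonic endoderm, 2 were higher, 2 lower and 4 did not pass, where 15.7% of all features passed. Dab2, an endocytic adaptor, was at least 3.01-fold higher (7.33 and 7.01 against 5.14 and 5.49, adjusted p = 0.00134) and the laminin gene Lamb1 at least 1.47-fold. The collagen IV gene Col4a2 was lower by -2.47 ± 0.27 (5.96 and 6.59 against 8.94 and 8.55, adjusted p = 0.000748), and the matrix gene Sparc by -0.87. Further Sparc probes did not pass (-0.47 and -0.64, adjusted p = 0.212 and 0.136). Gata4 (-0.01), Gata6 (0.20), Sox17 (0.55) and Sox7 (-0.17) did not pass. Of 8 endoderm markers with a probe, 3 (Sox17, Sox7 and Dab2) were detected on both FGF4 arrays and 0 on both arrays labelled LIF, and Afp, Ttr and Apoa1 on no array. Their summed intensities before normalization were 903 and 817 with FGF4 and 628 and 677 on the arrays labelled LIF, and those of the ES cell markers 54245 and 46727 against 33182 and 43896. Most of the endoderm probes were near background, and the median intensity of all probes was also higher with FGF4 (91.3 and 82.3 against 74.1 and 80.6). Lamb1 and Sparc did not pass in some of the fits that left out the FGF4 shRnd1, FGF4 shRnd2, LIF shRnd1, no-factor shRnd1 or no-factor shRnd2 array or with scaling by array medians (adjusted p = 0.0553 to 0.184).

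Of 8 measured trophoblast genes, 1 was higher, 3 lower and 4 did not pass, where 15.7% of all features passed. Ascl2, a helix-loop-helix factor that Wnt signalling induces in intestinal stem cells, was higher by 1.24 ± 0.23 (7.39 and 6.81 against 5.80 and 5.92, adjusted p = 0.00856), did not pass without either the FGF4 shRnd1 or LIF shRnd1 array (adjusted p = 0.0611 to 0.0733) and had a second probe at 1.99. Beside Rhox6 and Rhox9, Tead4, a partner of YAP in the trophectoderm, was lower by -1.41 ± 0.16 (adjusted p = 0.000845). A second Tead4 probe stood at -0.40 (adjusted p = 0.292). Of the trophoblast markers with a probe, only Gata3 was detected on all control arrays, and Elf5, Hand1, Tpbpa and Plac1 were detected on none. Of 6 measured neural genes, Sox11, a factor of neural progenitors, was higher by 2.39 ± 0.17 (8.68 and 8.58 against 6.17 and 6.30, adjusted p = 0.000112). Map2 was higher by 0.95, Ncam1 was at least 1.07-fold lower, and both did not pass in some of the fits that left out the FGF4 shRnd1, FGF4 shRnd2 or LIF shRnd2 array (adjusted p = 0.0539 to 0.0986). Nes (0.52), Tubb3 (0.04) and Sox21 (-0.44) did not pass, and Sox1 and Pax6 were detected on no array. Of 3 measured fibroblast genes 0 passed with limma, and 2 had an unadjusted p under 0.05 (Ccn2 0.73, Thy1 1.05 and Twist1 0.23, with adjusted p = 0.0683, 0.158 and 0.66).

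Of 8 measured genes of the germline and the 2-cell stage, 3 were higher, 2 lower and 3 did not pass. The receptor gene Kit, used by germ cells and their precursors, was lower by -2.14 ± 0.21 (6.90 and 6.90 against 9.19 and 8.87, adjusted p = 0.000407), and stood at 9.96 and 10.17 on the arrays labelled no growth factor. A second Kit probe stood at -0.63 (adjusted p = 0.243). Taf7l, a testis form of a TFIID subunit, was higher by 1.50, Zscan4c, which marks a transient 2-cell-like state, by 1.79 and Tcstv3 at least 1.44-fold, and none of the 3 passed in every fit. They did not pass in some of the fits that left out 1 of the 6 control shRNA arrays or with no background correction or no filter on detection (adjusted p = 0.0518 to 0.17). Dazl stood at -1.07 (adjusted p = 0.0547). Hox genes were near background: of 4 measured, Hoxa7 (at least 2.04-fold) and Hoxd9 (at least 1.32-fold) were lower, not well above background with FGF4, while Hoxb2 and Hoxb4 did not pass. Hoxd9 did not pass without either the FGF4 shRnd1 or LIF shRnd1 array or with no background correction or scaling by array medians (adjusted p = 0.0601 to 0.148). Of 6 measured genes of retinoid handling, Rbp7 was higher and 5 did not pass, near the 15.7% of all features, among them the retinoic acid-binding genes Crabp1 (-0.19) and Crabp2 (0.84) and the receptor genes Rarg (0.45) and Rxra (0.33).

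Among metabolic genes, cholesterol synthesis stood higher. Of 11 measured, 7 were higher, 0 lower and 4 did not pass (median 0.82), where 15.7% of all features passed. Dhcr7, which makes cholesterol in the last step, read 7.21 and 7.02 against 5.60 and 5.51 (1.56 ± 0.22, adjusted p = 0.00224), and Idi1, an isomerase of isoprenoid units, 6.82 and 6.96 against 5.60 and 5.40 (1.39 ± 0.22, adjusted p = 0.00373). These 2 passed whichever array was left out. Nsdhl (1.37), Msmo1 (1.16), Lss (1.14), the sterol sensor gene Insig1 (0.82) and Mvd (0.72) did not pass in some of the fits that left out 1 of the 6 control shRNA arrays or with no filter on detection (adjusted p = 0.0531 to 0.146). Ebp (0.65), Fdps (0.48), Pmvk (0.47) and Hsd17b7 (0.07) did not pass. Of 14 measured glycolysis genes, 3 were higher, 1 lower and 10 did not pass (median 0.22). The muscle enolase gene Eno3 (1.41), the lactate dehydrogenase gene Ldha (0.90) and Aldoc (0.71) were higher and the hexokinase gene Hk1 was lower by -0.79, but all 4 did not pass in some of the fits that left out 1 of the 6 control shRNA arrays or with no background correction or scaling by array medians (adjusted p = 0.0518 to 0.252). Gapdh (0.07), Aldoa (0.01), Pgk1 (0.45) and Pkm (0.37) did not pass.

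Of 14 measured cell cycle genes, 3 were higher, 0 lower and 11 did not pass (median 0.28), a share near the 15.7% of all features. The inhibitors Cdkn1a (p21) read 11.08 and 11.16 against 9.93 and 9.94 (1.18 ± 0.17, adjusted p = 0.00227) and Cdkn1c (p57) 9.59 and 9.67 against 8.27 and 8.10 (1.45 ± 0.23, adjusted p = 0.00429). The third was the cyclin gene Ccnd2, at least 2.99-fold higher (7.00 and 7.33 against 4.73 and 4.70, not well above background, adjusted p = 0.0002). Both further Cdkn1a probes did not pass (0.70 and 0.83, adjusted p = 0.104 and 0.0933), and of the further Ccnd2 probes 1 did not (0.66, adjusted p = 0.0781). The other D-type cyclin genes Ccnd1 (-0.15) and Ccnd3 (-0.40) and the genes Cdk1 (-0.10), Cdk2 (-0.33), Aurkb (0.10) and Top2a (0.36) did not pass. Of 13 measured p53 targets, 4 were higher, 0 lower and 9 did not pass (median 0.32). Beside Cdkn1a, the apoptosis genes Pmaip1 (Noxa, at least 2.43-fold, adjusted p = 0.000431) and Fas (at least 1.39-fold, adjusted p = 0.00386) were higher, from levels not well above background, and Ccng1 was higher by 1.06. Ccng1 did not pass without the FGF4 shRnd1, FGF4 shRnd2 or LIF shRnd1 array or with no filter on detection (adjusted p = 0.0534 to 0.141). Mdm2 (0.29), Bbc3 (0.48) and Gadd45a (0.21) did not pass. Of 12 measured hypoxia and stress genes, the prolyl hydroxylase gene Egln3 (1.38) and Ddit4 (0.73) were higher, Ankrd37 (-1.36) and Ndrg1 (-0.97) lower and 8 did not pass. Ddit4, Ankrd37 and Ndrg1 did not pass in some of the fits that left out 1 of the 6 control shRNA arrays or with scaling by array medians or no filter on detection (adjusted p = 0.0606 to 0.212). The metallothionein genes Mt1 (-0.64) and Mt2 (-1.28) did not pass.

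Large differences were also placed against the arrays labelled no growth factor. The 5 named genes whose fitted values differed by at least 4-fold between FGF4 and the arrays labelled LIF and whose means with LIF and with no growth factor, as labelled, were closest to each other were Msx1, Prph, Aurkc, Selenon and Gnmt. Prph, a neuronal intermediate filament gene, read 7.85 and 7.83 with FGF4, 5.43 and 5.20 on the arrays labelled LIF and 5.33 and 5.31 without factor. Selenon, a selenoprotein gene of muscle, read 8.29 and 8.60, 6.65 and 6.24 and 6.56 and 6.32, and the methyltransferase gene Gnmt 7.51 and 7.51, 4.66 and 4.74 and 4.59 and 4.81. Prph and Gnmt were not well above background in either of the latter groups, so their closeness there compares background readings, and with FGF4 they were at least 4.77-fold and 3.81-fold higher than on the arrays labelled LIF. Conversely, the 5 whose FGF4 and no-factor means were closest were Rem2, Scarf2, Mia, G0s2 and 4930591A17Rik. Rem2, a small GTPase gene, read 7.15 and 6.92 with FGF4, 4.65 and 5.35 on the arrays labelled LIF and 5.80 and 6.05 without factor. It was not well above background on the arrays labelled LIF, at least 2.74-fold lower there. G0s2, an inhibitor of lipolysis, read 6.22 and 5.98, 8.53 and 8.11 and 7.38 and 7.37. In all 5 the no-factor mean still lay between the other groups, and the nearest, Rem2, was 1.11 log2 units from FGF4. Scarf2 (2.08), Mia (-2.18) and 4930591A17Rik (-2.06) differed between FGF4 and the arrays labelled LIF. Of these, Mia did not pass whichever of the 6 control arrays was left out or with no filter on detection (adjusted p = 0.0777 to 0.222), nor did G0s2 without the FGF4 shRnd2 array (adjusted p = 0.0522).

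Some of the largest differences belonged to probes with no gene name here. ILMN_2997406 read 10.92 and 10.77 with FGF4 and 5.53 and 5.94 on the arrays labelled LIF (5.11 ± 0.22, adjusted p = 2.13e-05), and ILMN_2954474 9.66 and 9.87 against 5.09 and 5.76 (4.34 ± 0.30, adjusted p = 0.000112). In the other direction, ILMN_1255416 read 10.72 and 10.59 on the arrays labelled LIF and was not well above background with FGF4 (5.47 and 5.32), at least 36.5-fold lower (adjusted p = 1.84e-05). ILMN_2542023 read 12.20 and 12.15 against 7.27 and 7.25 with FGF4 (-4.91 ± 0.16, adjusted p = 8.28e-06).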

How the data were processed

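Biotin-labelled RNA was put on Illumina mouse arrays, per the labels. The deposited table gives for 45281 probes and each of 8 arrays a linear intensity that was not normalized. Per the file headers, each cell also has a deposited detection p-value. The sources used here do not give the scanner software. In 81.2% of the 362248 deposited intensity cells the decimal point had been lost. It was restored by digit count. Where 2 readings were possible (223148 cells), the higher was taken at a detection p-value of 0 and the lower otherwise. After this 0 cells were out of order with the detection p-values. The rule used the same p-values, so for those cells this is not an independent check. The rule was tested on simulated data. A second deposited table holds normalized intensity values, but its probe identifiers go against known abundances (ribosomal protein genes had a median percentile of 55.3, against 99.6 in the table used), so it served only for a count without names. All per-sample columns had a sample (0 without).

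Intensities were processed in R 4.3.3 with limma 3.58.1 (statmod 1.5.0): normexp background correction (offset of 16, controls inferred from the detection p-values), then quantile normalization and log2. Detection at p under 0.05 was required on at least 2 of 8 arrays, and the brightest probe stood for each gene symbol. Symbols come from the platform annotation (32245 probes with 1 symbol, 17 with several and 13019 with none). Promoter sequences come from RefSeq (GRCm38.p6). Group means (4 groups, 8 arrays, 4 residual degrees of freedom) were fitted with limma's lmFit and eBayes, two-sided, with Benjamini-Hochberg adjustment over 14103 features. A fit on simulated data was run first. Errors printed with ± are standard errors of the difference with 2 arrays against 2.

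Not well above background means that no array of the group detected the probe. The fold is then a bound, from the mean of the brighter group and, per array of the dimmer group, the higher of its own signal and the lowest detected signal. Named genes are the 15 largest rises and 15 largest falls (by the fitted difference), members of 29 gene lists, cell type markers, genes placed closest to the arrays with no growth factor, and 4 unnamed probes. The comparison, lists and rule were chosen with earlier results of these data known, so no list is independent evidence. Same-numbered control shRNA arrays did not deviate together (correlations of -0.08, -0.07 and 0.04), so no pairing was used. The number of arrays limits the precision.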

Additional observations from a re-analysis of the deposited data

How the results depend on the processing

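Of 264 genes followed by name, 138 passed between FGF4 and the arrays labelled LIF. Of these, 84 passed whichever array was left out, and 54 missed the threshold in at least 1 such fit; 0 of the 138 changed direction under any alternative. Most alternatives left the difference of a gene as it was, so they could not turn its direction. The fits without 1 of the 4 arrays compared, no background correction and array medians could change it. The 2212 features became 3325 with the 6 control shRNA arrays only, 1117 at an adjusted p under 0.01 and 597 among the 5551 features with 1 possible reading of every cell. The higher ones became 567 and 181 under the last 2 settings, and the lower ones 1682, 550 and 416 under all 3, and 517 with array medians. Leaving out 1 array gave 981 to 3325 in all, 467 to 1643 higher and 476 to 1682 lower. Each fit with 1 array in a group assumes that it varies like the other groups. With the 6 control shRNA arrays only, 23 followed genes that had not passed did so. With the deposited value table, without names, 2188 passed (974 higher and 1214 lower). Between the arrays labelled LIF and no growth factor the count of 1 became 2 with array medians, 3 without the filter on detection, 19 with 6 arrays, 33 with array weights, 0 with 1 reading (of 5551 features) and 4 with the value table, and 1 to 19 without 1 array. Between FGF4 and no growth factor the 2205 became 4112 with array weights, 1179 at an adjusted p under 0.01, 580 with 1 reading and 3858 with only the 4 arrays compared, and 1008 to 3232 without 1 array. A replicate block (shRnd1 and shRnd2) over the 6 control arrays gave 3076, 1 and 2975 for the 3 comparisons, against 3325 for the first without the block, and the numbers are not known to pair samples. Of list medians, 11 of 29 changed sign under some alternative. Interferon response (-0.27 over 9 of 19 genes) and ERK feedback (-0.03 over 5 of 16) did so only among features with 1 reading. That setting drops features and leaves the difference of each kept gene as it was. These medians therefore changed through the members dropped. Genes near background and the 2 arrays per group limit what can be told apart.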
